A study of Mus musculus and Homo sapiens with 176 samples.

Results

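Potassium channel genes were taken from the RNA tables of nuclei of 1 mouse (M3) by their symbols: every feature whose name starts with Kcn and a further letter, with names ending in "os" left out. This gave 98 of 24854 features. Of these, 95 are protein-coding features of 94 symbols (Kcnh8 is listed as 2 features), and 3 are noncoding transcripts that share the name stem and are counted apart (Kcnq1ot1, Kcnmb4os1 and Kcnmb4os2). The 8 libraries form 4 groups of 2: NeuN+ nuclei of cerebellum, NeuN- nuclei of cerebellum, NeuN+ nuclei of prefrontal cortex and NeuN- nuclei of prefrontal cortex. All groups share the strain C57BL/6, an age of 8 to 10 weeks and no stated treatment, and all come from the same animal, so p-values reflect how far libraries of a group differ, a spread that may be purely technical. NeuN is a nuclear protein of most neurons, encoded by Rbfox3, and the gate therefore separates nuclei stained for it from all others. The study as a whole compared the epigenomes of these regions, and its other samples were not used here.

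Potassium channels let potassium ions leave or enter a cell along their gradient and so set the resting potential, end the action potential and limit firing. Voltage-gated (Kv) channels are tetramers of pore subunits, and silent Kv subunits, which form no channel alone, alter the partners they join. Other families open on calcium or sodium ions, conduct inward better than outward (Kir channels), or leak at rest as dimers of subunits with a pair of pore loops each (K2P channels). Beta, KChIP, Kcne and Kcnmb proteins bind the pore subunits and change their gating or traffic. In brain, neurons carry most Kv channels, whereas glia are known for Kir channels that take up potassium released by firing.

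The deposited unit was FPKM, fragments relative to transcript length and library size, which can be compared between genes. A gene was compared where its FPKM was at least 1 in at least 2 libraries, which 66 of the 95 coding features and all 3 noncoding transcripts met. Changes are differences of log2(scaled FPKM + 1) with their standard errors (SE), so 1 unit is a 2-fold change for genes far above 1 FPKM and more than that for lower genes. A change was called at a Benjamini-Hochberg adjusted p under 0.05 from limma over all 14376 features that passed the same threshold, with 2 libraries in each group.

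The libraries listed between 11256 and 12494 features at 1 FPKM or more, and their FPKM summed to between 289350 and 307198 in 6 libraries and to 426851 and 414230 in the prefrontal NeuN- libraries. The gate was visible in Rbfox3 itself, at 123 and 119 FPKM in cerebellar NeuN+ nuclei against 33.3 and 34.5 in cerebellar NeuN- nuclei. In prefrontal cortex Rbfox3 stood at 16.2 and 15.7 FPKM in NeuN+ nuclei against 14.2 and 12.3 in NeuN- nuclei, a change of 0.47 ± 0.06 (adjusted p = 0.000548). All 5 astrocyte and all 5 oligodendrocyte markers were lower in NeuN+ nuclei of both regions, and 4 of 5 microglial markers were lower in those of prefrontal cortex. Summed over the list, astrocyte markers reached 35.5 to 41.3 FPKM in NeuN+ libraries against 457 to 660 in NeuN- libraries. Of 5 general neuronal markers, 4 were higher in cerebellar NeuN+ nuclei, but only 2 were higher and 3 lower in prefrontal NeuN+ nuclei, and their sum was 1207 and 1196 FPKM there against 1844 and 1941 in prefrontal NeuN- nuclei. All 5 cortical projection neuron markers were higher in prefrontal NeuN+ nuclei. They summed to 40.5 and 42.4 FPKM there against 17.6 and 16.1 in prefrontal NeuN- nuclei. Interneuron markers summed to 898 and 818 FPKM in prefrontal NeuN+ against 1474 and 1337 in prefrontal NeuN- nuclei. Of these 5, 2 were called higher and 1 lower in prefrontal NeuN+ nuclei. The prefrontal NeuN- libraries thus held much neuronal RNA. Cerebellar NeuN- libraries held it as well, with general neuronal markers at 470.8 and 474.5 FPKM against 940.8 and 952.2 in cerebellar NeuN+ nuclei. Interneuron markers summed to 451.4 and 464.9 FPKM in cerebellar NeuN- against 294.2 and 297.9 in cerebellar NeuN+ nuclei. Purkinje cell markers summed to 406.4 and 437.3 FPKM in cerebellar NeuN- against 461.4 and 457.9 in cerebellar NeuN+ nuclei. Granule cell markers summed to 628 and 637 FPKM in cerebellar NeuN+ nuclei against 172 and 172 in cerebellar NeuN- nuclei, and to at most 7.37 in prefrontal cortex. These markers moved with the groups compared below, and their part in the results was not tested. In such bulk samples, fewer cells of a type and less RNA per cell cannot be told apart.

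The most abundant channel gene differed between the groups. Kcnt1, which encodes the sodium-activated channel Slack, led in cerebellar NeuN+ nuclei with 135 and 137 FPKM and in cerebellar NeuN- nuclei with 47.7 and 47.1 FPKM. In prefrontal NeuN+ nuclei Kcnt1, at 40.1 and 39.3 FPKM, stood close to Kcnk1, at 39.5 and 38.9. Kcnk1, a K2P channel gene, led in prefrontal NeuN- nuclei with 73.5 and 65.1 FPKM. Summed over the 95 coding features, the channel genes reached 612 and 619 FPKM in cerebellar NeuN+ nuclei, 343 and 351 in cerebellar NeuN- nuclei, 498 and 488 in prefrontal NeuN+ nuclei, and 401 and 392 in prefrontal NeuN- nuclei. In both regions the sum was higher in each NeuN+ library than in either NeuN- library. These sums are of deposited FPKM and follow the few most abundant genes.

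**Figure D1:**
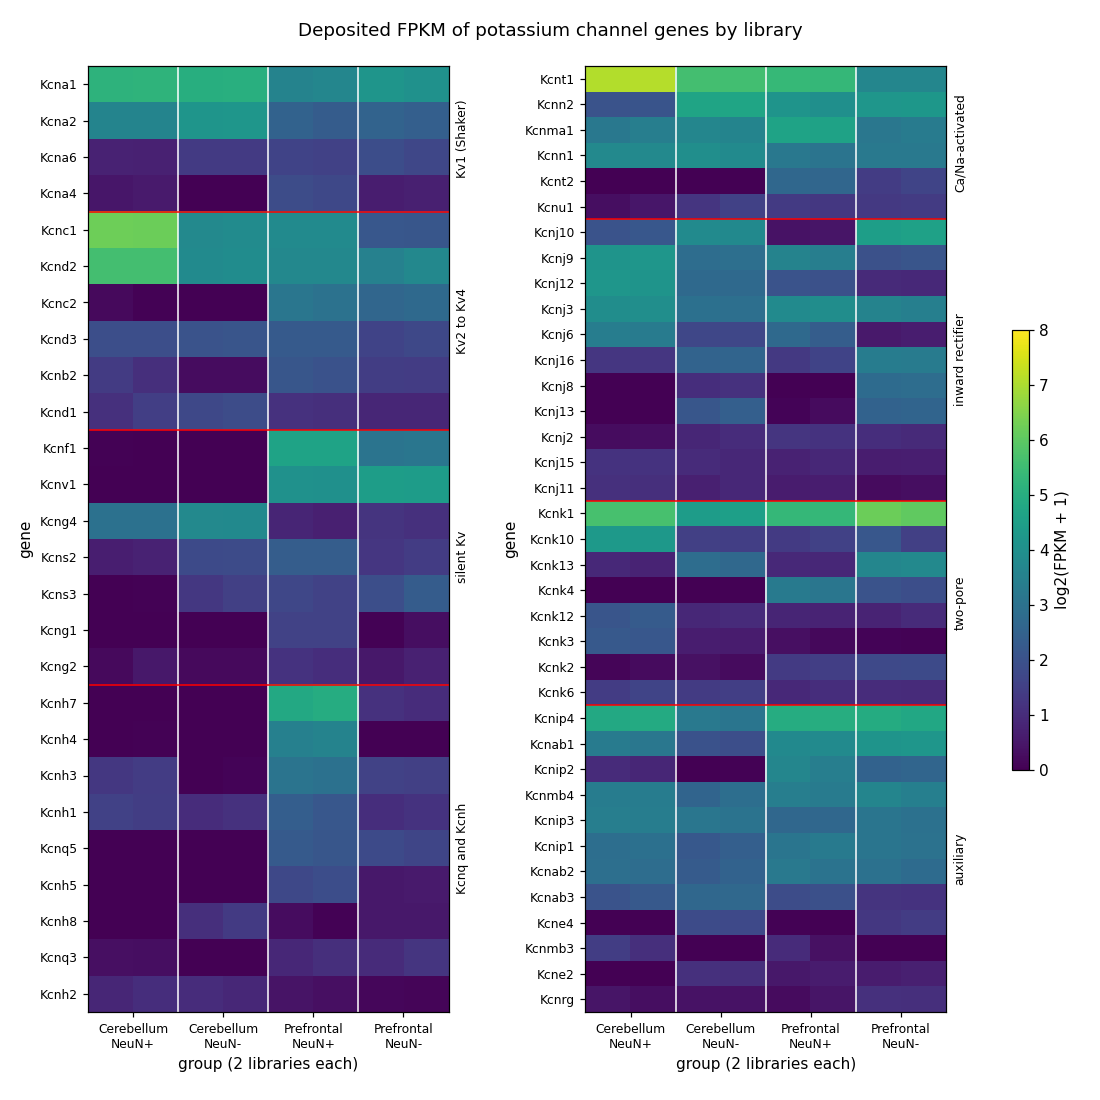
Log2(FPKM + 1) of 63 potassium channel genes (rows, by class and then by highest level) in the 8 libraries (columns, 2 per group). The 2 libraries of a group look alike in nearly every row, and the rows of Kcnf1 and Kcnv1 are dark in all 4 cerebellar libraries and bright in the prefrontal ones, while that of Kcnh7 is bright in prefrontal NeuN+ nuclei alone.

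**Figure D2:**
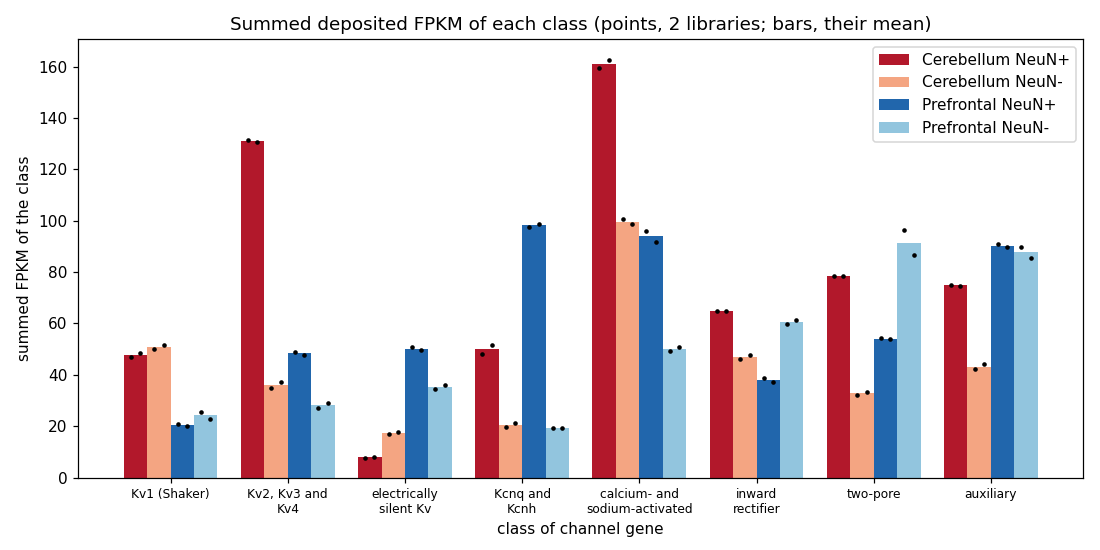
Summed deposited FPKM of the members of each class, with the 2 libraries of each group as points and their mean as a bar. Kv2 to Kv4 genes and ion-activated genes are highest in cerebellar NeuN+ nuclei, and Kcnq and Kcnh genes in prefrontal NeuN+ nuclei, also after the scaling used in the tests. The K2P sum (labelled two-pore) is highest in prefrontal NeuN- nuclei as deposited, but in scaled FPKM it was 83.7 and 76.9 there and 81.1 and 80.2 in cerebellar NeuN+ nuclei, which overlap.

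NeuN+ nuclei held more channel gene RNA for more of the genes, above all in prefrontal cortex. There, 39 of the 66 genes were called higher in NeuN+ nuclei (59.1%, against 35.0% of all features tested) and 12 lower (18.2%, against 37.6%). With FPKM left unscaled, the prefrontal split was 32 higher and 17 lower. In cerebellum, 29 were higher (43.9%, against 32.4%) and 19 lower (28.8%, against 39.2%). Some of these genes, such as Kcna4, Kcng2, Kcnh4 and Kcnh5, reached 1 FPKM in prefrontal NeuN+ libraries alone. Others did so in cerebellar NeuN+ libraries alone or, as Kcnh8, in cerebellar NeuN- libraries alone. The threshold favoured their direction in that region, so they are no support for a gate difference. The class counts below hold such genes too, and the same threshold acted on all features. The median change of the 66 genes was 0.32 in prefrontal cortex, where the median of all features was -0.01, and 0.03 in cerebellum, where it was -0.04. In both regions together, 21 genes were higher in NeuN+ nuclei (31.8%, against 15.2% of all features) and 8 were lower (12.1%, against 20.3%). Kcna1 and Kcnk1 were higher in NeuN+ nuclei of cerebellum and lower in those of prefrontal cortex; for Kcna1 the prefrontal call was lost with FPKM rescaled to a common sum (-0.07, adjusted p = 0.25, limma). Kcnab3, Kcnd1, Kcnj2, Kcnma1 and Kcns2 went the other way, of which Kcnd1 lost its prefrontal call in 6 of 16 alternative settings and Kcnj2 its cerebellar call with quantile normalization. Opposite calls made up 18.1% of all features.

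**Figure D3:**
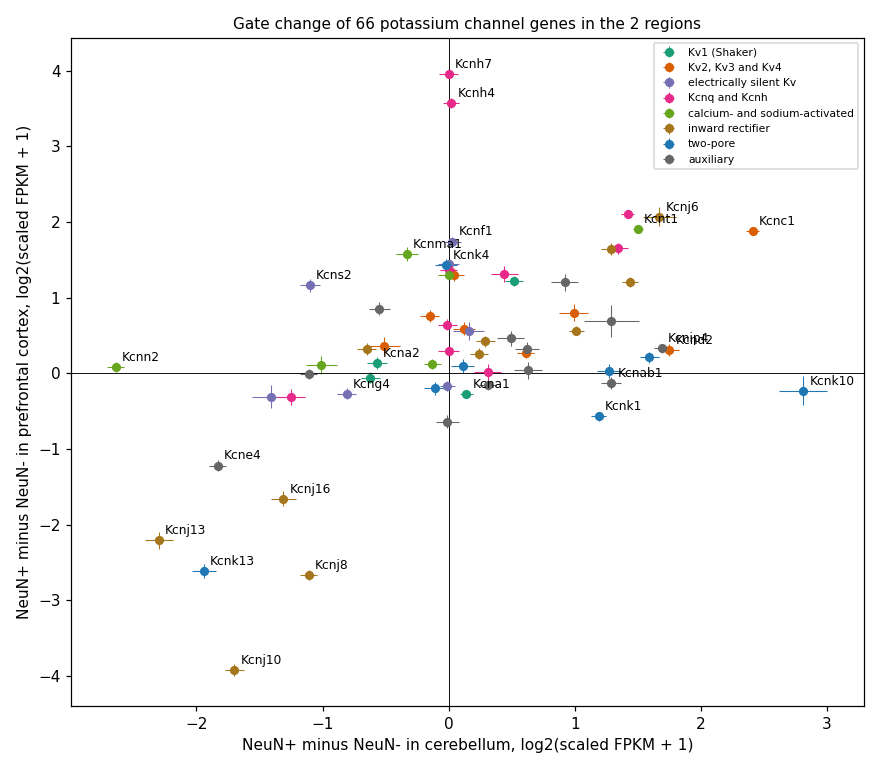
Change between NeuN+ and NeuN- nuclei in cerebellum (x) and in prefrontal cortex (y), as differences of log2(scaled FPKM + 1) with SE bars, for 66 genes coloured by class. Kcnh7 and Kcnh4 lie near 0 in cerebellum and above 3 in prefrontal cortex, Kcnk10 and Kcnn2 lie far from 0 in cerebellum and near 0 in prefrontal cortex, and Kcnj10, Kcnj8, Kcnj13, Kcnj16, Kcnk13 and Kcne4 are negative in both.

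Between regions the channel genes split nearly as all features did. In NeuN+ nuclei, 24 genes were higher in cerebellum than in prefrontal cortex (36.4%, against 36.5% of all features) and 30 lower (45.5%, against 40.7%). In NeuN- nuclei, 27 were higher in cerebellum (40.9%, against 40.5%) and 30 lower (45.5%, against 39.0%). Called the same way in both gates were 19 genes higher (28.8%, against 23.6%) and 20 lower (30.3%, against 25.2%) in cerebellum. The gate change differed between the regions for 48 genes: it was more positive in cerebellum for 17 (25.8%, against 33.1%) and more negative there for 31 (47.0%, against 37.0%). Of the 66 genes, 16 were under 1 FPKM in all 4 cerebellar libraries and passed the threshold through prefrontal cortex alone, and 9 the reverse. In NeuN+ nuclei, 15 of the 16 were among the 30 lower genes. Of the 9, 7 were among the 24 higher genes and 1 was lower. The threshold favoured these directions, so such genes are no support for a regional difference. The counts in NeuN- nuclei and in both gates also hold such genes, and the same threshold acted on all features. For the 16, 10 of which are among the 31, low levels limit the cerebellar gate change, and the difference mostly follows the prefrontal one. The shares over all features given so far also stand behind the class counts that follow, and nothing is called particular to a class from its count.

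**Figure D4:**
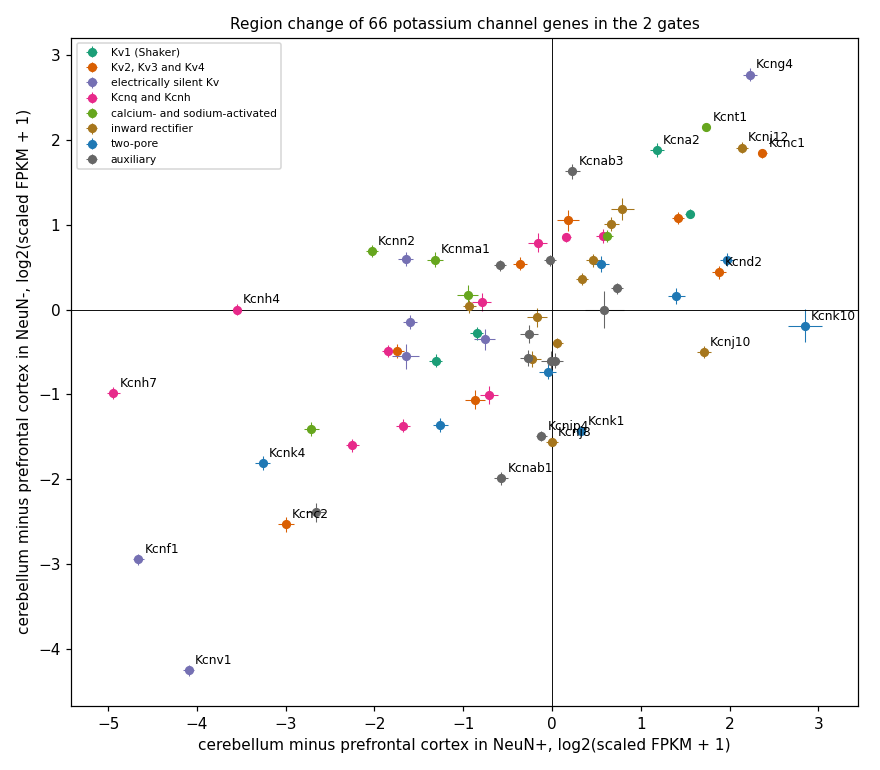
Change between cerebellum and prefrontal cortex in NeuN+ nuclei (x) and in NeuN- nuclei (y), as differences of log2(scaled FPKM + 1) with SE bars, for 66 genes coloured by class. Kcng4, Kcnj12, Kcnc1 and Kcnt1 are higher in cerebellum in both gates, Kcnv1, Kcnf1, Kcnk4 and Kcnc2 lower in both, and Kcnh4 is lower in NeuN+ nuclei alone.

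Kv1 (Shaker) genes encode low-threshold channels of axons. Of 8, 4 were compared, and 2 were higher and 2 lower in cerebellum than in prefrontal cortex in each gate. Among the lower ones, Kcna4 passed the threshold through prefrontal cortex alone. Kcna1 (Kv1.1) had 34.7 and 36.0 FPKM in cerebellar NeuN+ nuclei, 31.5 and 32.4 in cerebellar NeuN- nuclei, 11.0 and 11.6 in prefrontal NeuN+ nuclei and 17.2 and 15.7 in prefrontal NeuN- nuclei. All 4 cerebellar libraries lay above all prefrontal ones, and the region change was 1.55 ± 0.05 in NeuN+ (adjusted p = 8.2e-07) and 1.13 ± 0.05 in NeuN- nuclei (adjusted p = 3.4e-06). Its gate change in cerebellum was small, at 0.14 ± 0.05 (adjusted p = 0.047), and lost the call in 10 of 17 alternative settings. Kcna2 (Kv1.2) had 11.2 and 11.2 FPKM in cerebellar NeuN+ nuclei against 16.8 and 17.3 in cerebellar NeuN- nuclei, and fell by 0.57 ± 0.08 in NeuN+ nuclei there (adjusted p = 6.9e-04). Prefrontal cortex held less of Kcna2, 4.74 and 4.00 FPKM in NeuN+ and 4.85 and 4.38 in NeuN- nuclei. Kcna4 and Kcna6 stayed under 3 FPKM in every library and were lower in cerebellum in both gates, though Kcna6 lost the call in NeuN- nuclei with a common sum or without prefrontal NeuN- replicate 1.

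Kv2, Kv3 and Kv4 genes encode the delayed rectifiers, the fast channels that permit high firing rates and the A-type channels. All 8 compared of 9 were higher in prefrontal NeuN+ nuclei (against 35.0% of all features), where Kcnd1 and Kcnd2 lost the call with unscaled FPKM, and in cerebellum 4 were higher and 1 lower in NeuN+ nuclei (against 32.4% and 39.2%). Kcnc1 (Kv3.1) had 73.8 and 72.1 FPKM in cerebellar NeuN+ nuclei against 12.5 and 13.4 in cerebellar NeuN- nuclei, and 13.3 and 13.1 in prefrontal NeuN+ nuclei against 3.48 and 3.37 in prefrontal NeuN- nuclei. The groups did not overlap within either region, with gate changes of 2.41 ± 0.05 in cerebellum (adjusted p = 3.2e-07) and 1.88 ± 0.05 in prefrontal cortex (adjusted p = 5.2e-07). Kcnd2 (Kv4.2), the main A-type subunit of dendrites, had 47.7 and 48.1 FPKM in cerebellar NeuN+ nuclei against 13.2 and 13.9 in cerebellar NeuN- nuclei, and 12.2 and 12.2 in prefrontal NeuN+ nuclei against 10.6 and 12.3 in prefrontal NeuN- nuclei. Its libraries were high in cerebellar NeuN+ nuclei alone, and the gate change was larger there by 1.45 ± 0.11 (adjusted p = 5.5e-05). Kcnc2 (Kv3.2) ran the other way between regions, with 0.139 and 0.0441 FPKM in cerebellar NeuN+ nuclei against 7.90 and 7.02 in prefrontal NeuN+ nuclei, and 0 and 0.00881 in cerebellar NeuN- nuclei against 5.21 and 5.69 in prefrontal NeuN- nuclei. Kcnc2 passed the threshold through prefrontal cortex alone, which favoured this direction, so its region calls are no support for a regional difference. Kcnd1 (Kv4.1) was higher in cerebellum in NeuN- nuclei, by 1.05 ± 0.12 (adjusted p = 2.4e-04).

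Silent Kv subunits included genes at or near 0 in cerebellum and Kcng4, which was higher there in both gates. Of 7 compared of 10, 6 were lower and 1 higher in cerebellum than in prefrontal cortex in NeuN+ nuclei (against 40.7% and 36.5% of all features), and 4 were lower and 2 higher in NeuN- nuclei (against 39.0% and 40.5%). However, 4 of the 7 passed the threshold through prefrontal cortex alone, so their direction was set by it. Kcnf1 (Kv5.1) had 0.0259 and 0.0115 FPKM in cerebellar NeuN+ nuclei against 23.9 and 23.9 in prefrontal NeuN+ nuclei, and was listed at 0 in cerebellar NeuN- nuclei against 7.48 and 7.74 FPKM in prefrontal NeuN- nuclei. Within prefrontal cortex it was higher in NeuN+ nuclei by 1.74 ± 0.06 (adjusted p = 1.6e-06). Kcnv1 (Kv8.1) was listed at 0 in both cerebellar NeuN+ libraries against 15.7 and 15.3 FPKM in prefrontal NeuN+ nuclei, and had 0 and 0.0123 FPKM in cerebellar NeuN- nuclei against 21.0 and 20.3 in prefrontal NeuN- nuclei. Its gate change in prefrontal cortex, -0.17 ± 0.06, was called at adjusted p = 0.0457 and lost the call in 11 of 17 alternative settings. Kcng4 (Kv6.4) had 6.89 and 6.84 FPKM in cerebellar NeuN+ nuclei against 0.778 and 0.618 in prefrontal NeuN+ nuclei, and 12.7 and 12.9 in cerebellar NeuN- nuclei against 1.31 and 1.16 in prefrontal NeuN- nuclei. Every cerebellar library lay above every prefrontal one, by 2.23 ± 0.08 in NeuN+ (adjusted p = 7.6e-07) and 2.77 ± 0.08 in NeuN- nuclei (adjusted p = 4.9e-07). Kcns2 (Kv9.2) was lower in NeuN+ nuclei of cerebellum, 0.584 and 0.714 against 2.47 and 2.52 FPKM in NeuN- nuclei, and higher in those of prefrontal cortex, 4.09 and 4.10 against 1.40 and 1.66 FPKM in NeuN- nuclei.

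Kcnq and Kcnh genes encode the M-current channels and the Eag, Erg and Elk channels. Of 10 compared of 14, 8 were higher and 1 lower in prefrontal NeuN+ nuclei (against 35.0% and 37.6% of all features), and 4 were higher and 1 lower in cerebellar NeuN+ nuclei (against 32.4% and 39.2%). Under 1 FPKM in all cerebellar libraries were 5 of the 10, so the difference of their gate changes between the regions is not counted here. Kcnh4 and Kcnh5 reached 1 FPKM in prefrontal NeuN+ libraries alone and Kcnh8 in cerebellar NeuN- libraries alone. The threshold favoured their direction there. Kcnh7 (Kv11.3), an Erg channel gene, was listed at 0 in all 4 cerebellar libraries, and had 27.7 and 29.9 FPKM in prefrontal NeuN+ nuclei against 1.20 and 1.02 in prefrontal NeuN- nuclei. The prefrontal NeuN+ libraries stood far above all others, with a gate change of 3.96 ± 0.07 (adjusted p = 1.4e-07). Kcnh4 (Kv12.3), an Elk channel gene, had 10.2 and 10.9 FPKM in prefrontal NeuN+ nuclei against a listed 0 in both prefrontal NeuN- libraries, and reached 0 and 0.0295 FPKM in cerebellar NeuN+ nuclei and a listed 0 in cerebellar NeuN- nuclei (adjusted p = 1.2e-07 for the prefrontal gate change). Kcnh5 was also listed at 0 in all 4 cerebellar libraries and had 2.35 and 2.70 FPKM in prefrontal NeuN+ nuclei. Kcnh8 alone of the class was lower in NeuN+ nuclei of both regions, listed at 0 in cerebellar NeuN+ against 1.13 and 1.58 FPKM in cerebellar NeuN- nuclei; its prefrontal call was lost in 8 of 13 settings.

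Channels opened by calcium or sodium ions shape the afterhyperpolarization. The class was drawn up by gene name, and not every gene counted in it encodes such a channel. Of 6 compared of 8, 1 was higher and 3 lower in cerebellar NeuN+ nuclei (against 32.4% and 39.2% of all features), and 3 were higher in prefrontal NeuN+ nuclei (against 35.0%) with the other 3 not called. Kcnt1 had 135 and 137 FPKM in cerebellar NeuN+ nuclei against 47.7 and 47.1 in cerebellar NeuN- nuclei, and 40.1 and 39.3 in prefrontal NeuN+ nuclei against 11.6 and 11.6 in prefrontal NeuN- nuclei. It was higher with the gate and with the cerebellum, by 1.50 ± 0.04 in cerebellar NeuN+ nuclei (adjusted p = 5.1e-07) and 2.15 ± 0.04 in cerebellum among NeuN- nuclei (adjusted p = 1.7e-07). Its relative Kcnt2 (Slick) was listed at 0 in all cerebellar libraries and had 5.44 and 5.28 FPKM in prefrontal NeuN+ nuclei against 1.70 and 2.09 in prefrontal NeuN- nuclei. Kcnn2 (SK2), a small-conductance calcium-activated channel, had 3.12 and 3.21 FPKM in cerebellar NeuN+ nuclei against 24.7 and 24.8 in cerebellar NeuN- nuclei, while prefrontal libraries stood at 16.8 and 14.8 in NeuN+ and 17.4 and 17.7 in NeuN- nuclei. Cerebellar NeuN+ libraries were thus the low ones, with a gate change of -2.64 ± 0.07 in cerebellum (adjusted p = 4.9e-07) and 0.08 ± 0.07 in prefrontal cortex (adjusted p = 0.297). The test of the difference gave -2.72 ± 0.09 (adjusted p = 4.1e-06). Kcnma1, the BK channel opened by calcium and voltage, had 8.31 and 9.60 FPKM in cerebellar NeuN+ nuclei against 11.9 and 11.1 in cerebellar NeuN- nuclei, and 23.8 and 23.3 in prefrontal NeuN+ nuclei against 8.02 and 9.13 in prefrontal NeuN- nuclei. Prefrontal NeuN+ libraries were the high ones, and the difference of gate changes was -1.90 ± 0.13 (adjusted p = 3.3e-05); its smaller cerebellar gate change, -0.33 ± 0.09, lost the call without replicate 1 of either cerebellar group. Kcnn2 and Kcnt2 overlap other features of the tables, so their FPKM are uncertain without a stated use of strand.

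Inward rectifier genes went both ways with the gate. Each kept its direction in both regions except Kcnj2, which was lower in cerebellar and higher in prefrontal NeuN+ nuclei. All 11 compared of 15 were called in each region, 6 higher and 5 lower in cerebellar NeuN+ nuclei (against 32.4% and 39.2% of all features), and 7 higher and 4 lower in prefrontal NeuN+ nuclei (against 35.0% and 37.6%). Kcnj10 (Kir4.1), the main potassium uptake channel of astrocytes, had 3.16 and 3.50 FPKM in cerebellar NeuN+ nuclei against 13.2 and 12.9 in cerebellar NeuN- nuclei, and 0.303 and 0.381 in prefrontal NeuN+ nuclei against 21.4 and 22.9 in prefrontal NeuN- nuclei. The gates did not overlap in either region, and the gate change was -1.70 ± 0.08 in cerebellum (adjusted p = 3.4e-06) and -3.92 ± 0.08 in prefrontal cortex (adjusted p = 1.7e-07). Kcnj16 (Kir5.1), which joins Kir4.1 in mixed channels, had 1.42 and 1.38 FPKM in cerebellar NeuN+ nuclei against 4.83 and 4.95 in cerebellar NeuN- nuclei, and 1.53 and 2.05 in prefrontal NeuN+ nuclei against 9.19 and 8.98 in prefrontal NeuN- nuclei. Kcnj8 (Kir6.1), the KATP pore of vascular muscle and pericytes, was listed at 0 in all 4 NeuN+ libraries, against 1.07 and 1.20 FPKM in cerebellar NeuN- nuclei and 5.95 and 6.29 in prefrontal NeuN- nuclei. Kcnj13 (Kir7.1) was listed at 0 in cerebellar NeuN+ nuclei against 3.37 and 4.32 FPKM in cerebellar NeuN- nuclei, and had 0.0643 and 0.188 in prefrontal NeuN+ nuclei against 4.66 and 4.98 in prefrontal NeuN- nuclei; it lies within Gigyf2, and without a stated use of strand its FPKM are uncertain. Pericyte and smooth muscle markers summed to at most 3.89 FPKM in NeuN+ libraries against 59.4 to 124 in NeuN- libraries, and choroid plexus and ependyma markers to under 8 FPKM in every library.

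The GIRK genes, whose channels open on G-protein signals, went the other way. Kcnj6 (GIRK2) had 9.49 and 8.96 FPKM in cerebellar NeuN+ nuclei against 2.23 and 2.23 in cerebellar NeuN- nuclei, and 5.72 and 4.15 in prefrontal NeuN+ nuclei against 0.455 and 0.552 in prefrontal NeuN- nuclei. NeuN+ libraries were higher by 1.67 ± 0.13 in cerebellum (adjusted p = 3.6e-05) and 2.07 ± 0.13 in prefrontal cortex (adjusted p = 1.4e-05). Kcnj9 (GIRK3) and Kcnj3 (GIRK1) were also higher in NeuN+ nuclei of both regions, by 1.29 ± 0.08 and 1.01 ± 0.06 in cerebellum. Kcnj12 (Kir2.2), a strong rectifier, had 17.3 and 16.6 FPKM in cerebellar NeuN+ nuclei against 3.15 and 2.98 in prefrontal NeuN+ nuclei, and 5.68 and 5.62 in cerebellar NeuN- nuclei against 0.953 and 0.885 in prefrontal NeuN- nuclei. It was higher in cerebellum by 2.14 ± 0.06 in NeuN+ nuclei (adjusted p = 4.9e-07) and 1.91 ± 0.06 in NeuN- nuclei (adjusted p = 9.8e-07).

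Kcnj9 and Kcnj10 are neighbours on chromosome 1, separated by 11.9 kb (mm9, chr1:174251164-174259394 and chr1:174271341-174304216), yet Kcnj9 was higher and Kcnj10 lower in NeuN+ nuclei of both regions. Their promoters are shown because the pair moved in opposite directions, and that of Kcnh7 because the gene was listed at 0 in every cerebellar library. The sequences are RefSeq's on GRCm38.p6, 300 bases from 250 before to 50 after the start, on the strand of the gene; capitals mark TATAAA and GGGCGG on either strand (CCGCCC is GGGCGG read on the other strand).
Kcnj9, chr1:172329273-172329572, minus strand: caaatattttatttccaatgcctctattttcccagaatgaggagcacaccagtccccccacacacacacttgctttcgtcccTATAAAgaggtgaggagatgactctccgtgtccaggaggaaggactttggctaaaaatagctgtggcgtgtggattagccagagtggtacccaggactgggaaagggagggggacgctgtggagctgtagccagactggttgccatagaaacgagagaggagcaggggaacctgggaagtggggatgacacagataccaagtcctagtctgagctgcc
Kcnj10, chr1:172340960-172341259, plus strand: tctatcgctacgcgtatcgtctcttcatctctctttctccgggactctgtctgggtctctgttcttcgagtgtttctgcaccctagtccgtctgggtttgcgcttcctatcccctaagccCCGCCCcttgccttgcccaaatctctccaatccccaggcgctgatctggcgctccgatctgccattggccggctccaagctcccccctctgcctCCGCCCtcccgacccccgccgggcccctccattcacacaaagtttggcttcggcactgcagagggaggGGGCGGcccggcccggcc
Kcnh7, chr2:63184238-63184537, minus strand: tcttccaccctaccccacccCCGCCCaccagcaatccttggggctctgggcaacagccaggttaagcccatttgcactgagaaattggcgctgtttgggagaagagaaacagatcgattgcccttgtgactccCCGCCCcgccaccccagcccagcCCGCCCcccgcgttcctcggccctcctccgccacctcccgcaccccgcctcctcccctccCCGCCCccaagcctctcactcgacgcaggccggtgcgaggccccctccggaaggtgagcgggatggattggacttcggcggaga
The Kcnj9 window holds 1 TATAAA, 0 GGGCGG and 5 CG pairs, the Kcnj10 window 0, 3 and 21, and the Kcnh7 window 0, 4 and 21. Promoters were found for 70 of the 94 symbols, 94 windows in all. TATAAA occurred in 5.32% of these windows against 13.6% of all 32851, and GGGCGG in 47.9% against 35.7%. CAGCACC, part of the RE1 site of the repressor REST, occurred in 10.6% against 7.14%, and CANNTG in 73.4% against 72.3%. The median number of CG pairs was 9 against 7. A match is a description of the letters in the window and not a bound site.

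**Figure D5:**
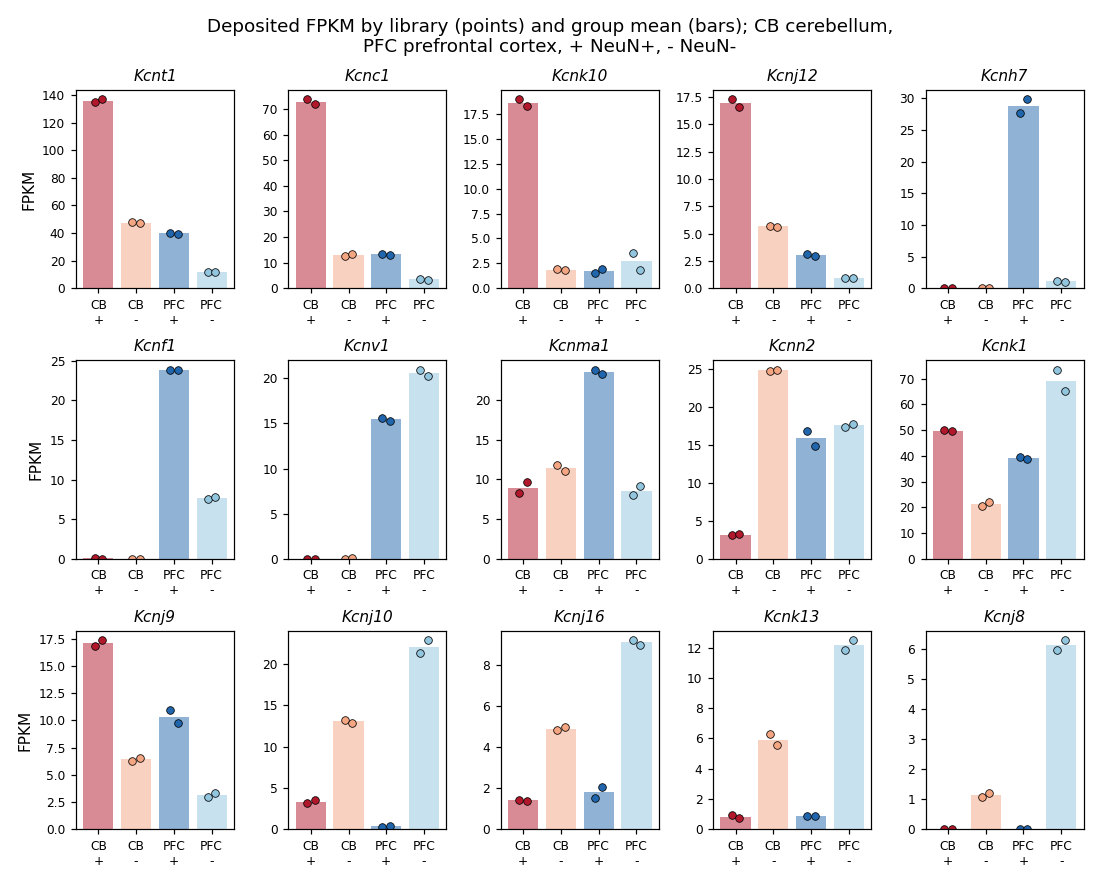
Deposited FPKM of 15 channel genes in each library (points; CB cerebellum, PFC prefrontal cortex, + NeuN+, - NeuN-) and their group means (bars from 0). Kcnt1, Kcnc1 and Kcnk10 peak in cerebellar NeuN+ nuclei, Kcnh7 and Kcnf1 in prefrontal NeuN+ nuclei, and Kcnj10, Kcnj16, Kcnk13 and Kcnj8 in prefrontal NeuN- nuclei.

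K2P genes encode channels that carry leak currents. Of 8 compared of 14, 4 were higher and 1 lower in cerebellar NeuN+ nuclei (against 32.4% and 39.2% of all features), and 2 higher and 2 lower in prefrontal NeuN+ nuclei (against 35.0% and 37.6%). The gate change was more positive in cerebellum for 5 and more negative for 1 (against 33.1% and 37.0%), and 4 of the 8 were under 1 FPKM throughout one of the regions. Kcnk10 (TREK-2), opened by stretch and lipids, had 19.0 and 18.3 FPKM in cerebellar NeuN+ nuclei against 1.88 and 1.79 in cerebellar NeuN- nuclei. It had 1.55 and 1.94 FPKM in prefrontal NeuN+ nuclei and 3.52 and 1.85 in prefrontal NeuN- nuclei, whose libraries differed from each other. Cerebellar NeuN+ libraries stood above all 6 others, by 2.81 ± 0.19 over cerebellar NeuN- nuclei (adjusted p = 2.1e-05), and the gate changes differed by 3.03 ± 0.27 (adjusted p = 1.1e-04). Kcnk1 (TWIK-1) had 49.9 and 49.7 FPKM in cerebellar NeuN+ nuclei against 20.5 and 22.1 in cerebellar NeuN- nuclei, but 39.5 and 38.9 in prefrontal NeuN+ nuclei against 73.5 and 65.1 in prefrontal NeuN- nuclei. The direction was opposite in the regions, 1.19 ± 0.06 in cerebellum (adjusted p = 5.6e-06) and -0.57 ± 0.06 in prefrontal cortex (adjusted p = 1.8e-04). Kcnk13 (THIK-1), known from microglia, had 0.914 and 0.721 FPKM in cerebellar NeuN+ nuclei against 6.26 and 5.54 in cerebellar NeuN- nuclei, and 0.877 and 0.854 in prefrontal NeuN+ nuclei against 11.8 and 12.5 in prefrontal NeuN- nuclei. All NeuN+ libraries were low, with a gate change of -1.94 ± 0.09 in cerebellum (adjusted p = 4.4e-06) and -2.62 ± 0.09 in prefrontal cortex (adjusted p = 1.3e-06). Microglial markers summed to 20.7 and 22.7 FPKM in cerebellar NeuN- nuclei, with C1qa at 0, and to 318 and 316 in prefrontal NeuN- nuclei. Kcnk4 (TRAAK) was listed at 0 in cerebellar NeuN+ nuclei against 8.90 and 7.72 FPKM in prefrontal NeuN+ nuclei, and reached 0 and 0.0344 in cerebellar NeuN- nuclei against 3.11 and 2.75 in prefrontal NeuN- nuclei.

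Of the auxiliary subunit genes, 12 of 17 were compared. In cerebellar NeuN+ nuclei 8 were higher and 3 lower (against 32.4% and 39.2% of all features), and 6 were higher and 2 lower in prefrontal NeuN+ nuclei (against 35.0% and 37.6%). Kcnip4 (KChIP4), a partner of Kv4 channels, had 27.3 and 28.6 FPKM in cerebellar NeuN+ nuclei against 8.32 and 7.66 in cerebellar NeuN- nuclei, and 29.8 and 30.8 in prefrontal NeuN+ nuclei against 29.4 and 27.1 in prefrontal NeuN- nuclei. Cerebellar NeuN- libraries were the low ones; the gate changes were 1.69 ± 0.06 in cerebellum (adjusted p = 1.4e-06) and 0.33 ± 0.06 in prefrontal cortex (adjusted p = 0.00242), and the prefrontal call was lost with unscaled FPKM. Kcnab1, a beta subunit of Kv1 channels, was also lowest in cerebellar NeuN- nuclei, with 9.12 and 8.02 FPKM in cerebellar NeuN+ nuclei against 3.04 and 2.83 in cerebellar NeuN- nuclei, and 12.8 and 13.3 in prefrontal NeuN+ nuclei against 16.5 and 17.5 in prefrontal NeuN- nuclei. The gate change was called in cerebellum (adjusted p = 1.3e-05) and not in prefrontal cortex (adjusted p = 0.174), and the difference was 1.42 ± 0.11 (adjusted p = 6.4e-05). Kcnab3, another beta subunit, had 5.35 and 5.56 FPKM in cerebellar NeuN- nuclei, above all other groups. Kcne4, a small subunit that dampens Kv channels, was listed at 0 in cerebellar NeuN+ against 2.54 and 2.43 FPKM in cerebellar NeuN- nuclei, and had 0.0326 and 0 in prefrontal NeuN+ nuclei against 1.46 and 1.68 in prefrontal NeuN- nuclei. Kcnab1, Kcnip4, Kcnip1 and Kcnmb4 overlap other features of the tables, so their FPKM are uncertain without a stated use of strand.

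The noncoding transcripts did not follow one pattern. Kcnmb4os1 had 14.5 and 12.2 FPKM in cerebellar NeuN+ nuclei against 7.94 and 6.70 in cerebellar NeuN- nuclei, and 14.2 and 12.2 in prefrontal NeuN+ nuclei against 14.4 and 13.6 in prefrontal NeuN- nuclei. It rose with the gate in cerebellum by 0.79 ± 0.12 (adjusted p = 9.6e-04). Its locus overlaps Kcnmb4, the BK beta subunit gene, which rose there by 0.63 ± 0.11, and reads of the pair may not have been told apart. Kcnmb4os2 had 8.83 and 10.5 FPKM in cerebellar NeuN+ nuclei against 0.971 and 0.682 in cerebellar NeuN- nuclei. Kcnq1ot1, the imprinted antisense RNA of Kcnq1, had 12.2 and 12.7 FPKM in cerebellar NeuN+ nuclei against 12 and 12.1 in cerebellar NeuN- nuclei, and 8.31 and 8.18 in prefrontal NeuN+ nuclei against 4.40 and 4.53 in prefrontal NeuN- nuclei.

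The 29 coding features not compared reached at most 1.27 FPKM, and 4 (Kcnk16, Kcnk18, Kcnk7 and Kcnv2) were listed at 0 in all 8 libraries. Just outside the threshold lay Kcnj14 and Kcnc4, whose second-highest FPKM were 0.998 and 0.986, and just inside it Kcnh2 and Kcng2, at 1.01 and 1.04.

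Channel partner proteins and the machinery that moves potassium were counted as well. Of 30 partner genes, 24 were compared; 12 were higher (50.0%, against 32.4% of all features) and 7 lower (29.2%, against 39.2%) in cerebellar NeuN+ nuclei, and 15 higher (62.5%, against 35.0%) and 5 lower (20.8%, against 37.6%) in prefrontal NeuN+ nuclei. Dpp6, which speeds Kv4 traffic and gating, had 10.4 and 9.93 FPKM in cerebellar NeuN+ nuclei against 4.04 and 3.63 in cerebellar NeuN- nuclei. In prefrontal cortex Dpp6 had 1.24 and 1.22 FPKM in NeuN+ against 0.818 and 0.768 in NeuN- nuclei. Dpp10, of the same family, had 27.5 and 29.5 FPKM in prefrontal NeuN+ nuclei against 17.5 and 19.4 in prefrontal NeuN- nuclei. In cerebellum Dpp10 had 10.3 and 9.64 FPKM in NeuN+ against 2.81 and 2.99 in NeuN- nuclei. Both genes were called higher in NeuN+ nuclei of both regions. All 11 sodium-potassium pump and cation-chloride cotransporter genes were compared: 6 were higher (54.5%) and 4 lower (36.4%) in cerebellar NeuN+ nuclei, and 5 higher (45.5%) and 6 lower (54.5%) in prefrontal NeuN+ nuclei, against the same shares of all features. Slc12a5, the neuronal chloride exporter KCC2, was higher in NeuN+ nuclei of both regions, by 0.57 in cerebellum and 0.84 in prefrontal cortex.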

How the data were processed

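RNA of sorted nuclei was sequenced in 8 libraries from 1 mouse. Cerebellum was frozen, its nuclei were isolated by sucrose centrifugation, labelled with a NeuN antibody and sorted, per the labels' protocols; for prefrontal cortex the handling was not given in the sources used here. Deposited by the authors were FPKM values for each gene in the format of Cufflinks, per the file headers. Tools listed in the submitters' processing notes, with no roles, are TopHat2 2.1.1, Cufflinks, Bowtie 1.1.1, Trim Galore 0.3.7 and Bismark, with the builds mm9 and hg19; how strand was used and which annotation served were not given in the sources used here. Among features with few implied fragments, only 50.0 to 53.4% of the fragment estimates lay within 0.05 of a whole number. Counts were therefore not recovered, and depth is known only as a relative estimate of 1.00 to 1.52. Low FPKM values carry counting error that is not shown.

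Each library was rescaled by a median-of-ratios factor taken over features at 1 FPKM or more in all 8 libraries. Features under 1 FPKM in all but 1 library or in all were dropped, and log2(scaled FPKM + 1) was modelled in limma 3.58.1 (R 4.3.3) with 4 group means, a variance trend and 4 residual degrees of freedom. Adding 1 compresses changes of low genes. Tests were two-sided, with Benjamini-Hochberg adjustment over 14376 features in each of 5 comparisons. The fit was also run on simulated data, without the filter and scaling and with far fewer changed features than here. That run therefore does not vouch for these calls. A 0 in these tables may be a failed estimate, so it is called a listed 0, and no fold is given against it. Gene coordinates are those of the tables (mm9).

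Genes named with full values were the most abundant of each class and, in each comparison, the 6 called genes with the largest change in each direction at 5 scaled FPKM or more; others were named to account for their class, after their values were seen. A few genes that enter the counts are not reported by name here. The members, lists and markers were chosen with earlier results of these data known. Alternatives changed the pseudocount, filter, scaling, variance trend, samples in the fit and replicate block, and left out each library. Replicate numbers recur in all groups, but all libraries come from 1 animal and the labels do not say what a number shares, so the model had no block.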

Additional observations from a re-analysis of the deposited data

Results flagged for a closer look

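The change between NeuN+ and NeuN- nuclei was tested for a difference between cerebellum and prefrontal cortex. The genes named in the text whose difference was called (adjusted p under 0.05, limma) are given here as the gate change in cerebellum minus that in prefrontal cortex, on the log2(scaled FPKM + 1) scale. It was more positive in cerebellum for Kcnk10 (3.03), Kcnj10 (2.21), Kcnk1 (1.76), Kcnmb4os2 (1.69), Kcnj8 (1.56), Kcnd2 (1.45), Kcnab1 (1.42), Kcnip4 (1.36), Kcnk13 (0.68), Kcnmb4os1 (0.65), Kcnmb4 (0.58), Kcnc1 (0.53), Kcnj3 (0.45) and Kcna1 (0.42). It was more negative in cerebellum for Kcnh7 (-3.96), Kcnh4 (-3.55), Kcnn2 (-2.72), Kcns2 (-2.26), Kcnma1 (-1.90), Kcnf1 (-1.72), Kcnk4 (-1.45), Kcnab3 (-1.40), Kcnh5 (-1.37), Kcnt2 (-1.30), Kcnj2 (-0.97), Kcnh8 (-0.94), Kcnq1ot1 (-0.91), Kcnd1 (-0.87), Kcna4 (-0.71), Kcna2 (-0.69), Kcne4 (-0.60), Kcna6 (-0.57), Kcng4 (-0.54), Kcnc2 (-0.47), Kcnt1 (-0.41), Kcnj9 (-0.35) and Kcnh3 (-0.30). Kcna4, Kcnc2, Kcnf1, Kcnh4, Kcnh5, Kcnh7, Kcnk4 and Kcnt2 were under 1 FPKM in all 4 cerebellar libraries and Kcnh8 in all 4 prefrontal ones, so their differences mostly follow the gate change in the other region. Kcnj8 was listed at 0 in all NeuN+ libraries. All these values depend on the pseudocount and are not folds. The call of the difference was lost in 11 of 16 alternative settings for Kcnh3, 9 of 16 for Kcnj9, 3 of 16 for Kcnc2 and 2 of 16 for Kcnmb4. Kcng4 lost it with a pseudocount of 0.1 and Kcna6 with quantile normalization. Across all features, 33.1% were more positive and 37.0% more negative in cerebellum.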

How the results depend on the processing

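Requiring 5 FPKM in 2 libraries left 37 channel genes, fewer by construction, with 19 higher and 9 lower in cerebellar NeuN+ nuclei, 22 higher in prefrontal NeuN+ nuclei, 14 lower in cerebellum among NeuN+ nuclei, 15 higher in cerebellum among NeuN- nuclei, and 16 with a more negative gate change in cerebellum. Leaving out each library in turn gave 22 to 29 higher and 16 to 19 lower for the cerebellar gate change, 29 to 38 and 9 to 11 for the prefrontal one, 16 to 22 and 24 to 30 for the region change in NeuN+ nuclei, 23 to 27 and 26 to 29 for that in NeuN- nuclei, and 15 to 18 and 25 to 30 for the difference of gate changes; a group's lone library was then assumed to vary like the others. Same-numbered libraries did not deviate together (correlations from -0.045 to 0.034), and with the replicate block the prefrontal gate change was called higher for 39 and lower for 10 genes and the cerebellar one for 28 and 19. Another scaling moved the median of all features, for the prefrontal gate change from -0.193 (unscaled) to 0.143 (common sum) and for the region change in NeuN- nuclei from -0.133 to 0.260; small changes near these sizes are relative to that shift. Some alternative runs dropped genes, and each call was followed only through the runs that still tested its gene. In all of those runs, calls held for 39 of 48 genes in the cerebellar gate change and 37 of 51 in the prefrontal one. They held for 50 of 54 and 51 of 57 in the region changes in NeuN+ and NeuN- nuclei, and for 40 of 48 in the difference. Among called changes the sign turned for Kcna4, Kcnc2 and Kcnh3, among others, in the difference of gate changes, with a pseudocount of 0.1, and for Kcnv1 in the prefrontal gate change, with a common sum. The cause was not tested. Unknown depth limits what can be said of genes near 1 FPKM.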
